A study of Rattus norvegicus with 30 samples.

Results

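Ezh2, Dnmt1, Hells, Suv39h1, Hmgb1, Hmgb2 and Hmgn2, 7 genes for chromatin proteins, were followed in rat embryonic fibroblasts of the untransformed REF cell line while serum was withheld. They were taken by symbol from a table of 17353 genes, and 6 of the 7 were among the 8940 genes with a mean of at least 1 FPKM (sequenced fragments relative to transcript length and to the library's mapped fragments). The control cells were not starved, and the other 9 groups had been without serum for 2, 3, 4, 6, 8, 10, 12, 14 or 16 days. Each group had 3 biological replicates, 30 RNA-seq libraries in all, and every group is the same line, so the values describe 1 line only. The series asks how deep quiescence becomes with longer starvation, and the comparisons here ask when these chromatin genes changed.

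Chromatin proteins package DNA and mark histones, and newly copied DNA is packaged and marked in turn. Ezh2 is the catalytic subunit of Polycomb repressive complex 2 and methylates histone H3 on lysine 27. Dnmt1 copies DNA methylation onto the new strand behind the replication fork, Hells is a SNF2-type helicase needed for DNA methylation, and Suv39h1 methylates histone H3 on lysine 9 in heterochromatin. Hmgb1 and Hmgb2 are paralogous proteins that bend DNA through their HMG boxes, while Hmgn2 is unrelated to them in sequence and binds the nucleosome itself. Transcription of many such genes rises with the cell cycle through E2F sites and through CHR elements, short promoter sequences bound by the DREAM complex in resting cells.

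Library size was unknown, since the table holds no counts. FPKM sums ran from 582501 to 785072 per library, and correlations between replicates from 0.9814 to 0.9913 (Pearson, log2 values, across genes). Once group means were removed, the leading principal component separated libraries numbered 1 (-17.8 to -5.79) from those numbered 2 and 3 (0.765 to 13.0). Member calls that were lost without libraries numbered 1 are given both ways. Of 12 fibroblast markers 7 had a mean of at least 1 FPKM, with a summed level of 15711 to 18050 in the controls and 12920 to 31114 in starved libraries. Pdgfra, Thy1, Dcn and Fap averaged under 1 FPKM, and Col1a2 was listed at 0. None of the 6 macrophage, 5 endothelial or 5 adipocyte markers averaged 1 FPKM over all libraries. Macrophage markers summed to 7.11 to 7.40 in the controls and 0.245 to 2.16 in starved libraries. Endothelial sums did not exceed 0.763 and adipocyte sums 0.296 in any library. Adgre1, Cdh5, Kdr, Fabp4 and Cidec of these lists were listed at 0. Epithelial markers, of which 1 of 6 (Krt8) did, summed to 10.9 to 12.9 in the controls and 20.3 to 75.8 in starved libraries. Skeletal muscle markers, of which 2 of 6 (Myod1 and Des) did, summed to 312 to 335 in the controls and 11.7 to 40.4 in starved libraries. The part of these changes in the results below was not tested.

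Hells was listed at 0 in 30 of 30 libraries. The same held for Hprt1, a purine salvage enzyme that cells use throughout, and for the collagen gene Col1a2, both looked up after the Hells values were seen. A 0 in this table is therefore reported only as listed, and no level of Hells is given.

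The other 6 genes were all lower after 2 days without serum. Hmgb2 fell most, to 7.0% of its control mean, and Hmgb1 least, to 48.7%. Ezh2, Dnmt1, Suv39h1 and Hmgn2 lay between 23.7% and 28.5%. All 6 passed the test downward (limma, adjusted over all 8940 genes, threshold 0.05), as did 30.7% of all genes tested, while 30% passed upward. In all 6 the control libraries lay above every day 2 library, which was so for 32.4% of all genes. A lower value in bulk RNA cannot separate less RNA per cell from fewer cells that express the gene.

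Among the enzymes, Ezh2 measured 71.2, 77.0 and 88.8 FPKM in the controls and 19.1, 19.5 and 18.02 at day 2. Its change was -2.004 ± 0.106 (log2(FPKM + 1), SE of the fit, limma adjusted p = 1.32e-14). Dnmt1 measured 33.2, 39.5 and 39.5 FPKM in the controls and 9.47, 9.82 and 9.75 at day 2, a change of -1.84 ± 0.10 (limma adjusted p = 5.98e-14). The 3 day 2 libraries lay close together in both genes, and the spread was mostly among the controls. Suv39h1, the least abundant of the 6, measured 17.9, 18.02 and 17.3 FPKM in the controls and 3.71, 4.51 and 4.39 at day 2 (-1.85 ± 0.13, limma adjusted p = 4.29e-12).

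Among the HMG proteins, Hmgb2 measured 325, 350 and 405 FPKM in the controls and 24.6, 26.0 and 25.0 at day 2. This change of -3.78 ± 0.17 (limma adjusted p = 9.94e-16) was the largest of the 6. Hmgb1 measured 161, 156 and 137 FPKM in the controls and 84.6, 68.3 and 68.4 at day 2 (-1.03 ± 0.11, limma adjusted p = 9.52e-09). Replicate 1 was the highest of the 3 Hmgb1 libraries in both groups. Hmgn2 measured 373, 355 and 364 FPKM in the controls and 104, 102 and 105 at day 2 (-1.80 ± 0.09, limma adjusted p = 2.90e-15).

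The levels of Hmgb1, Hmgn2, Hmgb2 and Suv39h1 carry an uncertainty of counting. RefSeq (GRCr8) names 23 further Hmgb1-like genes or pseudogenes, 7 for Hmgn2, 5 for Hmgb2 and 1 for Suv39h1. Reads of such copies can be split or lost where the copies are near-identical. A row named Hmg1l1, which RefSeq lists as a synonym of an Hmgb1 pseudogene, measured 82.7 ± 6.97 FPKM (SD, n = 3) in the controls and 36.8 ± 7.19 at day 2. It fell by 1.16 ± 0.14 on the log2 scale (limma adjusted p = 5.16e-08), and its course followed that of Hmgb1 (r = 0.993 over the 10 group means, from the same libraries). Hmgb1-ps2, another pseudogene row, did not exceed 0.0499 FPKM.

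**Figure D1:**
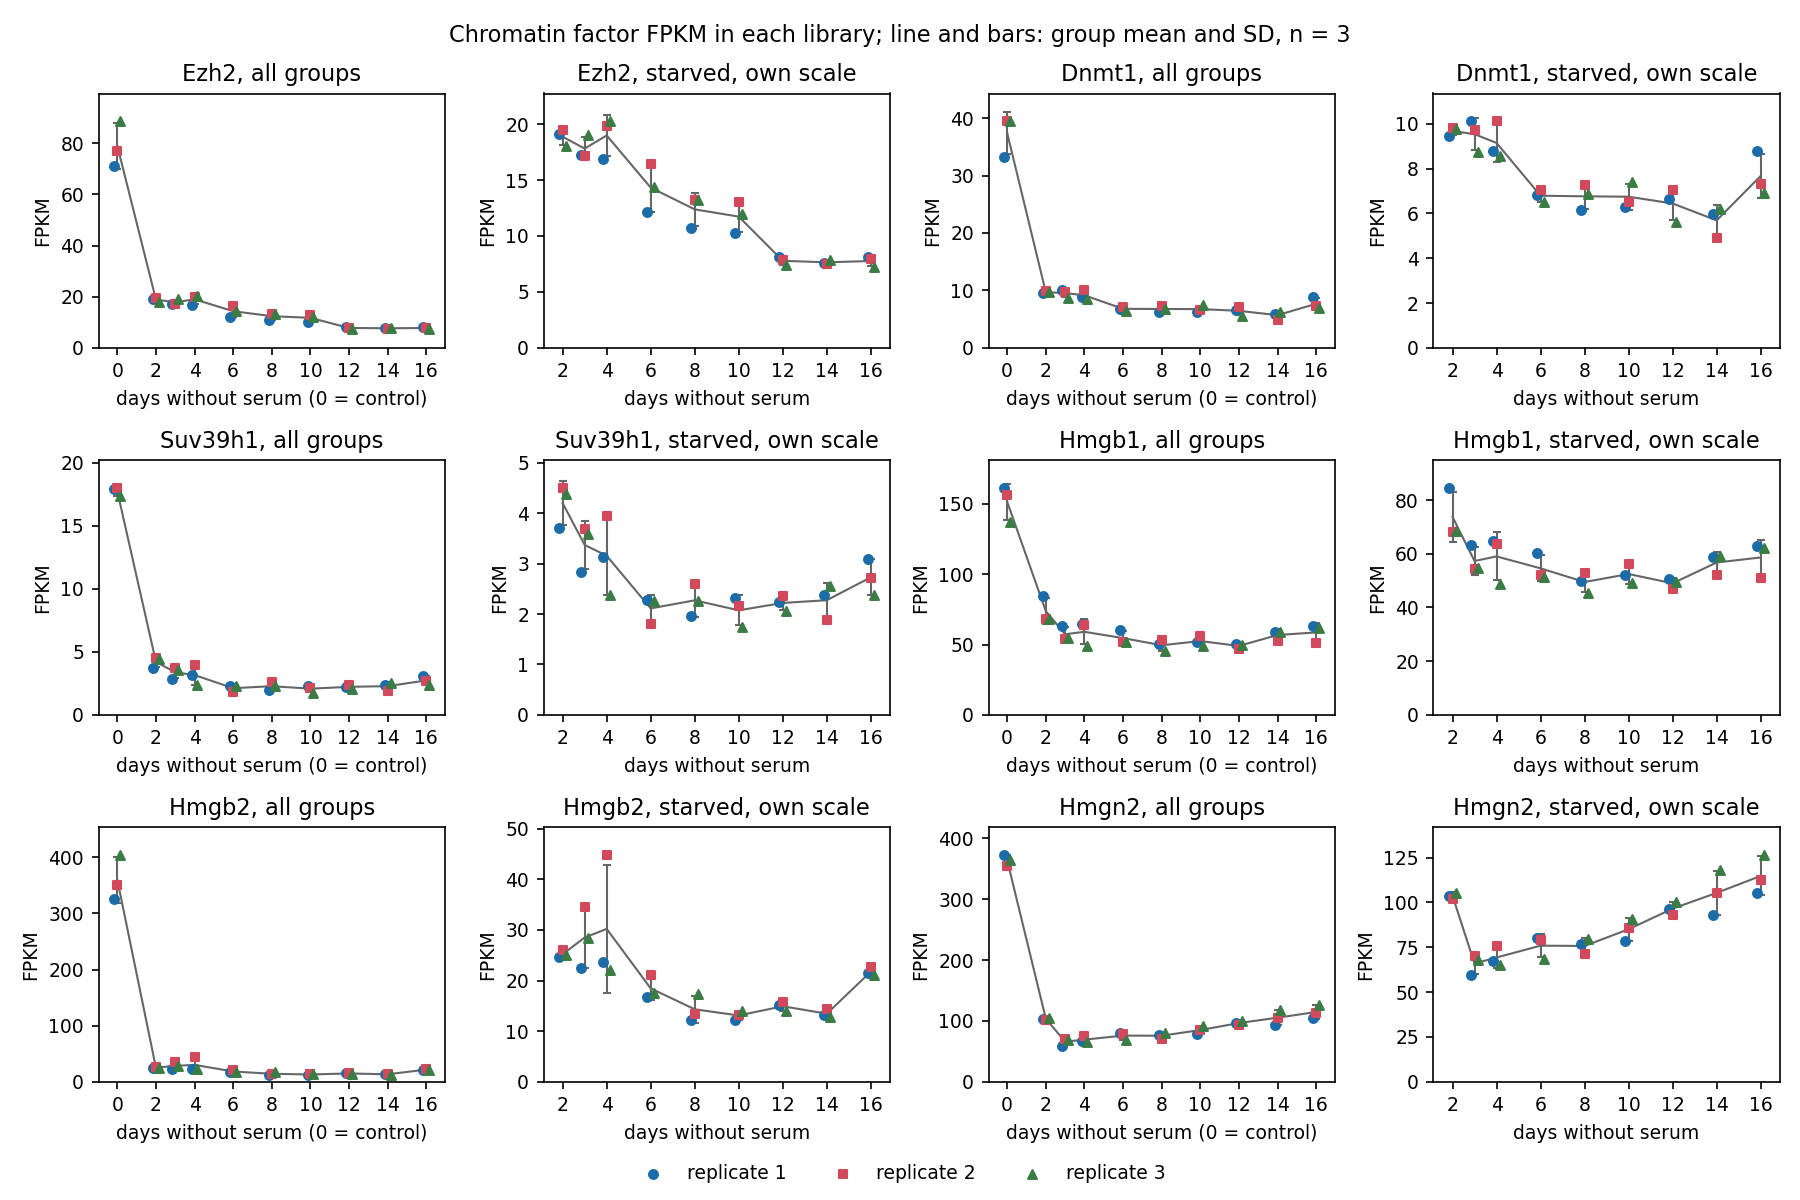
FPKM (y axis) against days without serum (x axis, 0 for the unstarved control) for 6 chromatin genes. For each gene the left panel holds all 10 groups and the right panel the 9 starved groups on their own scale; points are libraries by replicate number, and lines and bars are group mean and SD of 3 libraries. Control libraries lie far above all others in every gene, and among starved groups Ezh2 steps down to 7.78 at day 12 while Hmgn2 climbs from 65.9 at day 3 to 115 at day 16.

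Promoter sequences of Ezh2, Dnmt1 and Hmgb2 are shown because these members hold the letters of cell cycle promoter elements. Each window runs 5′ to 3′ along the gene, from 250 bases before the start to 50 after it, from RefSeq on GRCr8, a build other than the rn6 build behind the FPKM values. Capitals mark matches to TTTCCCGC, TTTGGCGC, TTTCGCGC, TTTGGCGG or TTTCCCGG (E2F type), to TTTGAA or TTCGAA (CHR type) and to CCAAT, on either strand.
Ezh2 (chr4:77687134-77687433, minus strand): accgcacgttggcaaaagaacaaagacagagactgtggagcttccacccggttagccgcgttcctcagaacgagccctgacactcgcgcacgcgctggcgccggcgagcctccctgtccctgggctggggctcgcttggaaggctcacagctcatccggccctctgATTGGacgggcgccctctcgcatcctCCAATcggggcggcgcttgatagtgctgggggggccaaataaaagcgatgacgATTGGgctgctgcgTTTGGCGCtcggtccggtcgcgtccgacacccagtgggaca
Dnmt1 (chr8:27762792-27763091, minus strand): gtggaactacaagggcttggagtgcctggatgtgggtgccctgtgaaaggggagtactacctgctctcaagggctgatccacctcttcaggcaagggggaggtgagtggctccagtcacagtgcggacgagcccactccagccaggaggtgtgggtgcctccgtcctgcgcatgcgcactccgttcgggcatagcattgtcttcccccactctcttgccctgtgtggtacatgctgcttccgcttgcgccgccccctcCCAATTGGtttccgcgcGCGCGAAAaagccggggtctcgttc
Hmgb2 (chr16:37723901-37724200, minus strand): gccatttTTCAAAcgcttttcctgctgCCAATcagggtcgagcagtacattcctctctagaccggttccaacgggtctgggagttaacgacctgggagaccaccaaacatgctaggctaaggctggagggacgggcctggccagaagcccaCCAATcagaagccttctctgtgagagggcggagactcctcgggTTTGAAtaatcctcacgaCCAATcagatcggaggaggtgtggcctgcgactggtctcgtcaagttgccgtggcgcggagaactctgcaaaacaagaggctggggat

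E2F-type letters were found in the windows of 3 of 7 members. They were TTTGGCGC in Ezh2, TTTCGCGC on the opposite strand in Dnmt1 and TTTCCCGC in Hells. Of 7324 windows of genes tested, 6.64% hold any of these 5 words. CHR-type letters were found only in Hmgb2 among the 7. There TTTGAA begins 56 bases before the start, between CCAAT words that begin 99 and 38 bases before the start. TTTGAA occurs a second time, on the opposite strand, at the far end of the window. Any CHR-type word is in 13.3% of windows of genes tested. CCAAT, the binding word of NF-Y, was in 6 of the 7 members and in 38.4% of windows of genes tested. In Dnmt1 a single stretch, CCAATTGG, matched CCAAT on both strands.

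At day 8 all 6 measured genes were lower than at day 2. Hmgb2 changed by -0.79 ± 0.17, Suv39h1 by -0.67 ± 0.13, Ezh2 by -0.58 ± 0.11, Hmgb1 by -0.56 ± 0.11, Dnmt1 by -0.46 ± 0.10 and Hmgn2 by -0.45 ± 0.09 (log2 ± SE). All 6 passed (limma adjusted p from 9.79e-05 to 0.00101), against 18.4% of all genes tested that were called lower and 17.4% that were called higher. These falls were smaller than those of the first 2 days. In all 6 genes the libraries of day 8 lay below those of day 2, as in 23.5% of all genes. Not every gene fell steadily in between. Hmgn2 was lowest at day 3, with a mean of 65.9 FPKM, and stood at 75.7 at day 8. Hmgb2 means were 25.2, 28.5 and 30.2 FPKM at days 2, 3 and 4.

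From day 8 to day 16 the 6 genes did not all move in the same direction. Ezh2 fell further, by 0.61 ± 0.11 (limma adjusted p = 9.17e-05), while Hmgn2 rose by 0.59 ± 0.09 (1.24e-05) and Hmgb2 rose by 0.59 ± 0.17 (0.0125). The Hmgb2 call was lost without day 8 replicate 1 (0.49, limma adjusted p = 0.0687) and with replicates 2 and 3 only (0.49, 0.106). Between day 8 and day 16, 15.8% of all genes tested were called higher and 14.4% lower. The libraries of the 2 days did not overlap in these 3 genes, and 22.1% of all genes lay wholly higher and 24% wholly lower at day 16. The differences of Dnmt1 (0.16 ± 0.10, limma adjusted p = 0.272), Suv39h1 (0.19 ± 0.13, 0.288) and Hmgb1 (0.24 ± 0.11, 0.105) did not pass. That of Hmgb1 passed with a replicate block (limma adjusted p = 0.0410) and without day 16 replicate 2 (0.0406). The late change (day 16 minus day 8) was set against the early one (day 8 minus day 2), which spans fewer days. It was more positive in 5 of the 6 genes, with 15.4% of all genes called in that direction and 13.9% in the other. The difference was 1.37 ± 0.30 for Hmgb2 and 1.04 ± 0.15 for Hmgn2 (limma adjusted p = 0.00102 and 8.10e-06), 0.86 ± 0.23 for Suv39h1 (0.00514), 0.80 ± 0.19 for Hmgb1 (0.00211) and 0.62 ± 0.18 for Dnmt1 (0.0113). For Ezh2 it was -0.03 ± 0.18 (limma adjusted p = 0.926), a value that changed sign under quantile normalization (0.03). With replicates 2 and 3 only, the calls of Suv39h1 (limma adjusted p = 0.0923) and Dnmt1 (0.178) were lost. That of Dnmt1 was also lost without day 8 replicate 1 (limma adjusted p = 0.0830). Day 16 was the only late group in this difference, which was not refitted with day 14. With day 14 in place of day 16, the changes from day 8 were -0.07 for Hmgb2 and -0.22 for Dnmt1. Those of the other members kept their sign.

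**Figure D2:**
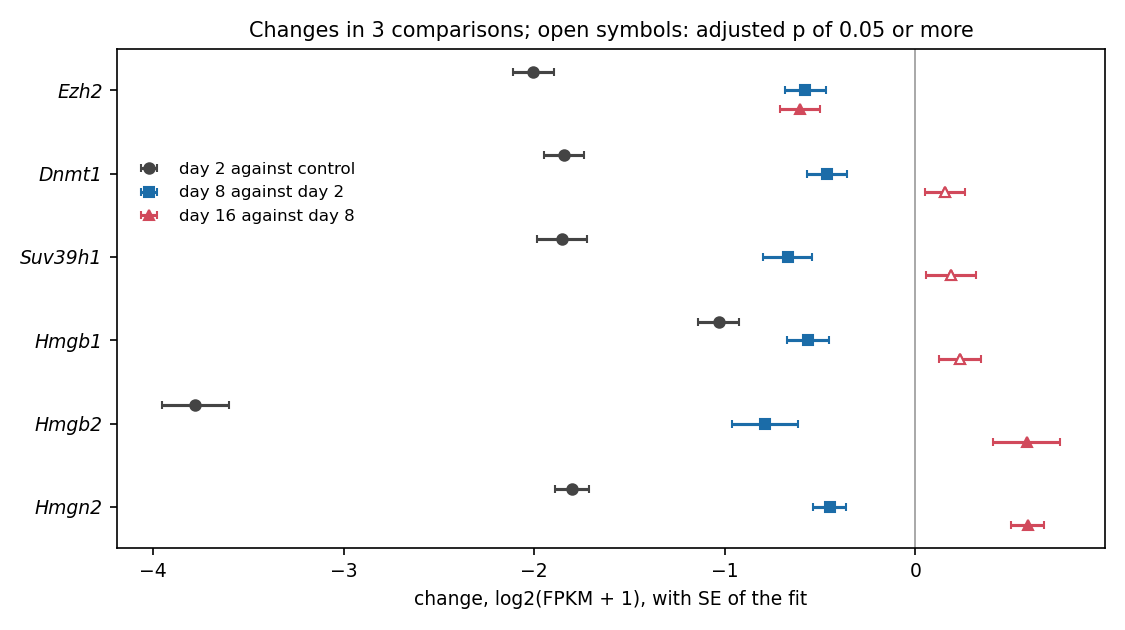
Change in log2(FPKM + 1) (x axis, points with SE of the fit) of each of 6 chromatin genes (y axis) for day 2 against control, day 8 against day 2 and day 16 against day 8. Open symbols did not pass the adjusted threshold; the first 2 comparisons lie left of 0 for every gene, and in the last one only Ezh2 does.

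The Ezh2 course was stepwise. Days 2, 3 and 4 had means of 18.9 ± 0.760, 17.8 ± 1.01 and 19.0 ± 1.87 FPKM (SD, n = 3). Days 6, 8 and 10 followed with 14.3 ± 2.15, 12.4 ± 1.46 and 11.7 ± 1.39, and days 12, 14 and 16 with 7.78 ± 0.343, 7.64 ± 0.187 and 7.76 ± 0.482. Day 10 libraries (10.3 to 13.0 FPKM) lay above all day 12 libraries (7.42 to 8.10), and days 12, 14 and 16 overlapped each other. Within the plateaus neighbouring groups overlapped, while day 3 and day 6, next to each other in the order of levels, did not (17.2 at the lowest and 16.5 at the highest). The share of all genes without overlap was not counted for these pairs of groups. At day 16 Ezh2 stood at 9.83% of control. Of its fall to day 16 on the log2 scale, 62.9% had been reached by day 2, the smallest such share among the 6. Its fitted slope over days 2 to 16 was -1.38 ± 0.09 over 14 days (limma adjusted p = 6.10e-13), the steepest among the 6. Of all genes tested 28.9% were called with a falling slope and 26.6% with a rising one.

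Dnmt1 and Suv39h1, like Ezh2, were lower at day 6 than at day 4. They had no step like that of Ezh2 between days 10 and 12. Dnmt1 stayed at 9.68 ± 0.189, 9.54 ± 0.714 and 9.15 ± 0.855 FPKM at days 2, 3 and 4 and was then at 6.79 ± 0.289 at day 6. From day 6 to day 14 its means lay between 5.69 and 6.79, with overlap between neighbours in the order of levels. At day 16 the Dnmt1 libraries measured 8.80, 7.32 and 6.91 FPKM, against 5.97, 4.92 and 6.18 at day 14. Suv39h1 went from 4.203 ± 0.431 at day 2 through 3.37 ± 0.469 and 3.16 ± 0.779 at days 3 and 4 to 2.11 ± 0.271 at day 6. From day 6 on its means lay between 2.08 and 2.73 FPKM, with overlap between neighbours in the order of levels. Its day 16 libraries measured 2.38 to 3.09 FPKM, and those of day 12 reached 2.36. The slopes were -0.51 ± 0.11 for Dnmt1 and -0.46 ± 0.14 for Suv39h1 (limma adjusted p = 0.000266 and 0.00668). The slope of Dnmt1 was steeper over days 2 to 14 only (-0.78 ± 0.10), as was that of Suv39h1 (-0.71 ± 0.15). At day 16 Dnmt1 stood at 20.5% and Suv39h1 at 15.4% of control.

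Hmgb2 was low from day 2 on and varied between replicates early in starvation. At day 3 it measured 22.5, 34.5 and 28.5 FPKM and at day 4 23.6, 44.9 and 22.2. Replicate 2 was the highest at both times, and in the day 4 library of that number the proliferation marker Mki67 was at 5.05 FPKM, against 2.07 and 1.66 in the other two. At day 3 Mki67 measured 2.22, 2.32 and 2.70, so that replicate 3, not replicate 2, was its highest library. Hmgb2 means then were 18.5 ± 2.24 at day 6 and 13.1 to 14.9 between days 8 and 14. At day 16 the libraries measured 21.6, 22.7 and 21.1 FPKM, against 13.2, 14.4 and 12.8 at day 14. The slope over days 2 to 16 was -0.76 ± 0.21 (limma adjusted p = 0.00336), and -1.31 ± 0.20 over days 2 to 14 only.

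The late rise of Hmgb2 rested on day 16. With day 14 in place of day 16, the change from day 8 was -0.07 ± 0.17 (limma adjusted p = 0.806). Genes of the cell cycle moved with it. Of 30 DNA replication genes 21 were higher at day 16 than at day 8 and 0 lower, with a median change of 0.47, and of 23 mitosis genes 15 were higher and 0 lower, with a median of 0.77. The median over all genes tested was -0.00047. With replicates 2 and 3 only, 7 of the 23 mitosis genes were called higher, and without day 16 replicate 1, 9 were. With day 14 in place of day 16, 2 of the 30 replication genes and 0 of the 23 mitosis genes were. Mki67, at 0.123, 0.0925 and 0.330 FPKM at day 14, measured 1.41, 0.721 and 0.699 at day 16, against 40.0 to 58.9 in the controls. Over days 2 to 16 Mki67 fell (-1.28 ± 0.32 over 14 days, limma adjusted p = 0.00111), while Pcna rose (0.35 ± 0.07, 0.000132). Pcna was also higher at day 8 than at day 2 (0.23 ± 0.09, limma adjusted p = 0.0424). The part of these genes in the Hmgb2 result was not tested.

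Hmgb1 and Hmgn2 had their lowest levels at different times. Hmgb1 had 73.8 ± 9.39 FPKM on day 2 and 57.3 ± 5.04 on day 3 and stayed between 49.0 and 59.0 to day 16, all of those neighbours overlapping. Its slope of -0.21 ± 0.11 did not pass (limma adjusted p = 0.0929). It passed over days 2 to 14 only (-0.36 ± 0.12, limma adjusted p = 0.0152), with log2 of day (-0.31, 0.00996) and without day 16 replicate 1 (-0.27, 0.0391) or day 16 replicate 3 (-0.26, 0.0436). Hmgn2 measured 59.5, 70.2 and 68.1 FPKM at day 3, against 104, 102 and 105 at day 2. From day 3 on its mean was higher at each later time but day 8. It reached 96.5 ± 3.46 at day 12, 105 ± 12.4 at day 14 and 115 ± 10.9 at day 16. The day 14 and day 16 libraries overlapped those of day 2. Hmgn2 was the 1 member with a rising slope (0.52 ± 0.13 over 14 days, limma adjusted p = 0.000994). It was also the 1 member whose day 16 mean, 31.5% of control, was above its day 2 mean.

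All 6 genes were still lower at day 16 than in the controls, with no overlap between the groups. Of all genes tested 35% were called lower and 32.4% higher in that comparison, and 36.2% had no overlap in that direction. The changes ran from -3.98 ± 0.17 for Hmgb2, -3.19 ± 0.11 for Ezh2 and -2.33 ± 0.13 for Suv39h1 to -2.15 ± 0.10 for Dnmt1, -1.66 ± 0.09 for Hmgn2 and -1.36 ± 0.11 for Hmgb1 (limma adjusted p from 7.75e-19 to 3.70e-11). This comparison shares its control libraries with that of day 2. For Hmgb2, 94.9% of the fall to day 16 had been reached by day 2, for Dnmt1 85.7%, for Suv39h1 79.4% and for Hmgb1 76.0%.

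The order by level changed during starvation for Ezh2 with Ezh1 and for Hmgb2 with Hmgb1, and not for Dnmt1 with Dnmt3a. Ezh1, the second H3 lysine 27 methyltransferase of Polycomb, is known for its presence in cells that have stopped dividing. It measured 6.06, 5.59 and 5.63 FPKM in the controls and 14.7, 14.1 and 16.3 at day 2, a rise of 1.24 ± 0.09 (limma adjusted p = 2.81e-12). It rose further over days 2 to 16 (0.46 ± 0.07 over 14 days, limma adjusted p = 1.77e-06). The ratio of Ezh2 to Ezh1 FPKM, both per transcript length, was 13.8 ± 2.02 (SD, n = 3) in the controls, 1.26 ± 0.142 at day 2, 0.855 ± 0.0561 at day 6 and 0.383 ± 0.0217 at day 16. Every library up to day 4 had a ratio above 1, and every library from day 6 on one below 1. Hmgb2 exceeded Hmgb1 in the 3 control libraries, with a ratio of 2.40 ± 0.491, and was below it in all 27 starved ones. On day 2 the ratio was 0.346 ± 0.0486, on day 14 0.239 ± 0.0324 and on day 16 0.376 ± 0.0597. Dnmt1 exceeded Dnmt3a, a DNA methyltransferase of another subfamily, in all 30 libraries. That ratio was 8.53 ± 1.56 in the controls, 2.90 ± 0.689 on day 2 and 4.86 ± 1.84 on day 16, and 1.78 at its lowest, in a day 3 library. These ratios were not tested, and that of Hmgb2 to Hmgb1 carries the uncertainty of counting given above.

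**Figure D3:**
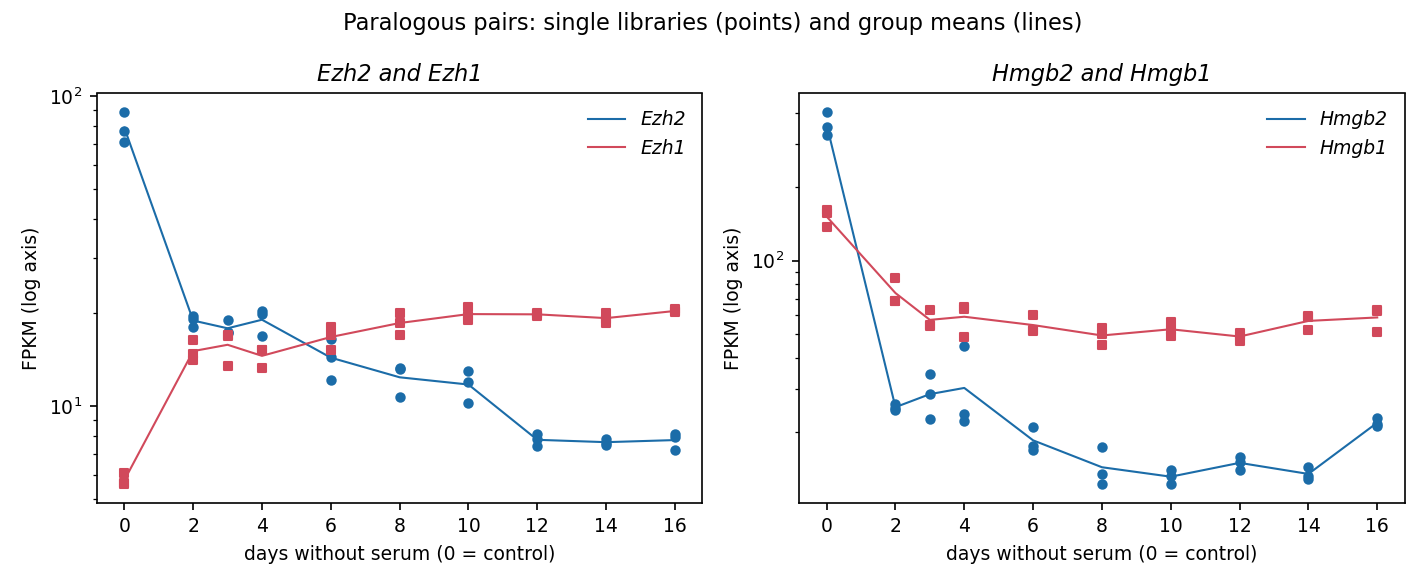
FPKM on a log axis (y) against days without serum (x, 0 for control) for Ezh2 with Ezh1 and for Hmgb2 with Hmgb1; points are libraries and lines group means. The Ezh lines cross between days 4 and 6, when the ratio goes from 1.32 to 0.855, and the Hmgb lines cross between the control and day 2.

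Among other chromatin genes the counts at day 2 are read against the 30.7% of all genes tested that fell and the 30% that rose. Of 25 Polycomb genes tested besides Ezh2, 9 fell and 7 rose, with a median change of -0.04, shares near those of all genes. The median over all genes tested was 0.000044. The PRC2 accessory protein Phf19 fell from 9.30 ± 1.15 to 0.455 ± 0.194 FPKM and the histone-binding subunit Rbbp4 from 140 ± 6.30 to 65.2 ± 2.56. Of 14 genes of H3 lysine 9 methylation and HP1, 5 fell and 5 rose, with a median of 0.04, again near the shares of all genes. The corepressor Trim28 fell from 191 ± 4.08 to 104 ± 1.91 FPKM, and the HP1 genes Cbx3 and Cbx5 from 232 ± 22.0 to 102 ± 6.91 and from 56.7 ± 1.23 to 25.4 ± 3.65. Wiz, of the same list, rose (0.43 ± 0.13, limma adjusted p = 0.00490).

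Known partners of Dnmt1 and Hells fell at day 2. Of 13 DNA methylation genes 8 fell and 2 rose, with a median change of -0.35. Without day 2 replicate 1, 5 fell, and 1 rose without control replicate 2 or any 1 of the day 2 libraries. Uhrf1, which brings Dnmt1 to newly copied DNA, fell from 94.2 ± 15.2 to 2.16 ± 0.389 FPKM (-4.91 ± 0.27, limma adjusted p = 2.24e-14). Cdca7, the activator of Hells, fell from 34.5 ± 0.525 to 0.953 ± 0.0961, and Cdca7l from 7.65 ± 0.818 to 0.796 ± 0.163. The de novo methyltransferase Dnmt3a did not pass at day 2 (4.53 ± 1.14 and 3.46 ± 0.816 FPKM, limma adjusted p = 0.144), but did without control replicate 1 (-0.49, 0.0279). Over days 2 to 16 it fell (-0.87 ± 0.14 over 14 days, limma adjusted p = 8.61e-06), as did the thymine DNA glycosylase Tdg (-0.61 ± 0.08, 4.15e-07).

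Histone chaperones held the most falls of the 6 chromatin lists at day 2. Of 20 tested 15 fell and 0 rose, with a median change of -0.96. Asf1b, which hands new histones to the assembly machinery, fell from 77.5 ± 4.22 to 1.94 ± 0.646 FPKM, the histone carrier Nasp from 37.6 ± 2.11 to 3.20 ± 0.704 and the FACT subunit Ssrp1 from 146 ± 3.63 to 60.5 ± 0.282. Of 16 SNF2-type remodellers 7 fell and 3 rose, with a median of -0.21. The mitotic helicase Ercc6l fell from 9.06 ± 1.01 to 0.206 ± 0.148, and Smarca2, the BRM ATPase of the SWI/SNF complex, rose from 14.3 ± 1.02 to 43.4 ± 3.27. Of 6 other HMG proteins 3 fell and 1 rose, with a median of -0.35, and 5 fell with a replicate block. Beside these, all 30 replication genes and all 23 mitosis genes tested fell, with medians of -2.65 and -4.45. The median over the 6 measured members was -1.85, and the part of cell cycle genes in the members' falls was not tested.

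**Figure D4:**
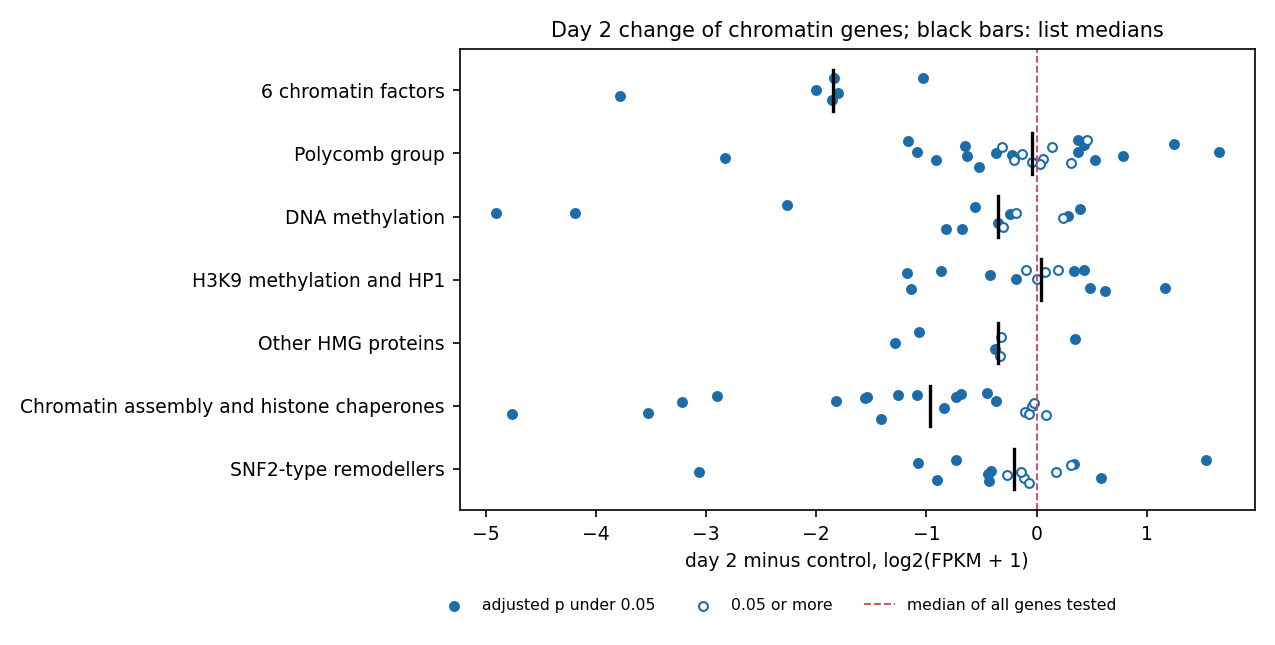
Change from control to day 2 in log2(FPKM + 1) (x axis) of each gene tested in 6 chromatin lists and of the 6 measured members (y axis); filled points passed the adjusted threshold, black bars are list medians, and the dashed line is the median of all genes tested. The members' median of -1.85 lies left of every list median, and Polycomb and H3 lysine 9 genes spread to both sides of 0.

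Over days 2 to 16, when 28.9% of all genes tested fell and 26.6% rose, 10 of 25 Polycomb genes fell and 4 rose. Cbx7, a PRC1 reader of H3 lysine 27 methylation, was at 1.32 ± 0.314 FPKM on day 2 and 5.86 ± 0.767 on day 16 and rose (1.48 ± 0.11 over 14 days, limma adjusted p = 2.89e-12), and Phc2 fell (-0.57 ± 0.08, 3.58e-07). Of the other HMG genes 2 of 6 fell and 2 rose, and 1 rose without day 2 replicate 1, day 3 replicate 1, day 4 replicate 3, day 14 replicate 3 or day 16 replicate 2 or over days 2 to 14 only. Hmga2, an AT-hook protein of growing embryonic cells, was at 17.0 ± 5.62 FPKM on day 2 and 3.05 ± 2.21 on day 16 and fell (-2.35 ± 0.30, limma adjusted p = 1.83e-07). Among histone chaperones 7 of 20 fell and 4 rose. With replicates 2 and 3 only, 4 of them fell, and over days 2 to 14 only, 1 rose. Of 16 remodellers 8 fell and 1 rose, and 0 rose with replicates 2 and 3 only or over days 2 to 14 only. Of 13 DNA methylation genes 6 fell and 0 rose, and without day 3 replicate 3 or day 4 replicate 3 only 3 fell. Of 14 genes of H3 lysine 9 methylation and HP1 4 fell and 1 rose, and that 1 lost its call without any 1 library of day 2 or day 3 or without day 4 replicate 1. In that list 6 fell and 0 rose with replicates 2 and 3 only, 6 fell and 2 rose over days 2 to 14 only, and 3 rose with log2 of day.

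The members' courses differed most among starved cells. Over the 9 starved group means, Dnmt1 went with Hmgb2 (r = 0.927) and Suv39h1 (r = 0.903), while Hmgn2 ran against Ezh2 (r = -0.663). Over all 10 groups every pair was at 0.669 or above, with the control group far from the others in each gene. These are Pearson correlations of group means of log2(FPKM + 1) from the same libraries, given as a description.

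Among 7166 genes with a mean of at least 5 FPKM, those nearest to each member in course were as follows. Over 10 groups, Dnmt1 was nearest to the replication genes Mcm6 (r = 0.997) and Rrm1 (0.996) and the mitotic kinase Bub1 (0.995). Suv39h1 was nearest to the clamp loader subunit Rfc4 (0.997) and the primase genes Prim2 (0.995) and Prim1 (0.994), and Hmgb2 to Cdca8 (0.998), Rrm1 (0.998) and Bub1 (0.997). Ezh2 was nearest to Ppp4r1 (0.995), the H3 lysine 36 methyltransferase Whsc1 (0.994) and Cnih4 (0.993). The 3 genes nearest to Hmgb1 included Hmg1l1 (0.993) and Nup62 (0.990), and Hmgn2 was nearest to Snx5 (0.993), the proteasome subunit Psma1 (0.992) and the chaperonin subunit Cct5 (0.989).

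Over the 9 starved groups the neighbours changed for some members. Hmgb2 stayed with the mitotic genes Aurkb (r = 0.992) and Cdca8 (0.988), followed by the nuclear lamina gene Lmnb1 (0.988). Lmnb1 averaged 90.2 ± 8.57 FPKM in the controls, 6.31 ± 0.373 on day 2, 2.42 ± 0.465 on day 8 and 4.23 ± 1.18 on day 16. Dnmt1 was nearest to Tcf19 (0.974), Mcm6 (0.969) and Rrm1 (0.964). Ezh2 was nearest to Ywhaq (0.991), Mum1l1 (0.990) and Ppp4r1 (0.987), and Suv39h1 to Plcd1 (0.976), Add1 (0.975) and Hyal2 (0.973). Hmgb1 was nearest to Zfp428 (0.968), Mtmr11 (0.963) and Gulp1 (0.960), and the 3 nearest to Hmgn2 included Nprl2 (0.989) and Adh5 (0.983).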

How the data were processed

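RNA was sequenced from 30 libraries of the REF line, 3 in each of 10 groups. The submitters' processing notes name TopHat2 2.1.1, Cufflinks, Cuffnorm 2.2.1 and the rn6 build. The authors deposited FPKM per gene symbol. Annotation, scaling across libraries and filters are not given in the sources used here, and depth is unknown. Genes with a mean of at least 1 FPKM (8940 of 17353) were tested as log2(FPKM + 1), which understates changes of low genes, with limma 3.58.1 in R 4.3.3. Fits used 10 group means, or a slope on day over 27 starved libraries given as the change over 14 days, with a mean-variance trend, two-sided tests and Benjamini-Hochberg adjustment over all genes tested (threshold 0.05). The script was tested on simulated data. Alternatives covered the pseudocount, filter, scaling, replicate block, libraries numbered 2 and 3 only, the libraries fitted, the scale of day and each library left out in turn.

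The members, gene lists and motifs were chosen with earlier results of these data known. Besides the members, the rule for naming took the 3 genes of each chromatin list with the smallest p at day 2. It also took the 2 with the smallest p for the slope and the 3 genes nearest to each member in course. Pcna, Mcm2, Mki67 and Ccna2 were part of it as well. Some genes that met this rule are left out of the results, Mcm2 and Ccna2 among them. Ezh1 and Dnmt3a, named as paralogs, also met this rule. Hprt1, Col1a2, Hmg1l1 and Hmgb1-ps2 were named after their values were seen.

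What a replicate number stands for is not given in the labels. Deviations of same-numbered libraries from their group means correlated across genes at 0.592, 0.209 and 0.188 (control and day 2) and at 0.440, 0.135 and 0.357 (control and day 16), so these libraries were treated as paired in the check with a replicate block. For days 2 and 8 and days 8 and 16 at least 1 of the 3 correlations was under 0.1.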

Additional observations from a re-analysis of the deposited data

How the results depend on the processing

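Depth is unknown, so no counting error can be given, and low genes such as Suv39h1 and Phf19 are the least certain. Suv39h1, with a mean under 5 FPKM, was not tested under the filter of at least 5 FPKM. Of 36 changes of the 6 measured members, 31 passed. Over 654 refits of them under the alternatives, 636 kept their direction and their side of the threshold, 5 lost the call, 6 gained it and 7 changed sign. The number of genes called stayed within 1.5 times in each comparison under every alternative run. Leaving out 1 library at a time gave 4970 to 5265 genes for day 2 against control, 2724 to 2912 for day 8 against day 2, 2091 to 2347 for day 16 against day 8, 5662 to 5757 for day 16 against control, 1918 to 2539 for the late minus the early change and 4749 to 5072 for the slope.

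With a replicate block the pairing moved no call of a member for day 2 against control or day 16 against control, and gave 5900 and 6449 genes called in place of 5425 and 6032. In the other comparisons, which were not treated as paired, the block gave 3820 genes for day 8 against day 2 and 3470 for day 16 against day 8. It gave 3256 for the late minus the early change and 5193 for the slope over days 2 to 16. There it brought the change of Hmgb1 from day 8 to day 16 past the threshold (0.24, limma adjusted p = 0.0410), as did leaving out day 16 replicate 2 (0.33, 0.0406). Of 30 libraries 23 correlated best with their own number.

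The late minus early change of Ezh2 changed sign under quantile normalization (0.0293) and without day 2 replicate 3, day 8 replicate 2, day 8 replicate 3 or day 16 replicate 3, with a range of -0.218 to 0.0685 over fits without 1 library. With day 14 in place of day 16, an alternative chosen after seeing the data, the changes of Dnmt1 and Hmgb2 from day 8 were -0.217 and -0.0724. The fit over days 2 to 14 only was also added after seeing the data. Among the other named genes, 941 of 952 refits kept direction and side of the threshold and 0 changed sign.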

Other observations

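Hmgn3, a relative of Hmgn2, fell at day 2, then rose and fell again, and was above its control level at day 16. It measured 38.6 ± 4.19 FPKM (SD, n = 3) in the controls and 29.4 ± 2.1 on day 2. Means of 65.5 ± 2.78, 78.5 ± 9.51 and 77.9 ± 4.14 followed on days 3, 4 and 8, and 54.4 ± 4.22 on day 16. By limma it rose from day 2 to day 8 (1.37 ± 0.10, adjusted p = 3.26e-11) and fell from day 8 to day 16 (-0.51 ± 0.10, adjusted p = 0.000358). It was lower at day 2 by limma (-0.37 ± 0.10, adjusted p = 0.00240), a call lost under quantile normalization (adjusted p = 0.0512), and higher than control at day 16 (0.49 ± 0.10, adjusted p = 0.000138).

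The paralogs Suv39h2 and Dnmt3b averaged under 1 FPKM over the 30 libraries and were not tested. Suv39h2 was at 3.41 to 4.11 FPKM in the controls and 0.301 to 0.535 at day 2. Dnmt3b was at 0.318 to 0.685 in the controls and 0.890 to 1.27 at day 2.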
